A study of Mus musculus with 20 samples.

Results

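This account covers 9 liver enzymes that start or feed the breakdown of amino acids: Gldc, Tat, Tdo2, Sds, Gls2, Agxt, Oat, Prodh and Hal. They were picked by gene symbol, as rows of the deposited array table whose platform annotation carries that symbol. Of the 9 genes, 7 matched, each with 1 probe set among the 22206 in the table. Sds, the serine dehydratase gene, and Gls2, the liver glutaminase gene, are not analysed here. The series measured RNA in whole livers of 20 mice on Affymetrix arrays, 1 array per liver. Fed WT, fasted WT, fed Mcl1KO and fasted Mcl1KO groups held 5 mice each, described in the labels as biological replicates. Mcl1KO stands for the labelled genotype Mcl1(L-/-), in which floxed Mcl1, an anti-apoptotic BCL2 family gene, was deleted by AAV-LP1-Cre, an adeno-associated virus with Cre recombinase under a liver-specific promoter. That growth protocol stands on all 20 samples and what WT mice received is not given separately, so virus or Cre and the loss of Mcl1 cannot be told apart. Fasted mice lived singly in wire-bottom cages for 48 h with water and without food, so lack of food and the change of housing cannot be told apart either. Age, sex and strain are not stated in the labels.

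When dietary fuel runs out, the liver takes up amino acids released from muscle and other tissues. Their nitrogen is moved by aminotransferases or freed as ammonia and enters urea, and their carbon skeletons feed glucose and ketone body synthesis. Glucocorticoids and glucagon, hormones of fasting, are known to raise transcription of several of these enzymes in hepatocytes, and Tat and Tdo2 are classic examples. Many of the steps run mainly in periportal hepatocytes, while ornithine aminotransferase is known as an enzyme of the cells around the central vein.

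Fasting raised 4 of the 7 measured enzymes in WT livers, and these 4 rose in Mcl1KO livers too: Gldc, Hal, Tat and Tdo2. Gldc had the largest rise of the 7 in both genotypes, at 4.88-fold in WT and 3.22-fold in Mcl1KO. Hal was 2.09-fold and 1.92-fold higher, Tat 1.61-fold and 1.56-fold, and Tdo2 1.54-fold and 1.34-fold. Oat, Prodh and Agxt were not called in either genotype. A gene was called where its adjusted p was under 0.05 in limma, a linear model fitted to all 20 arrays, with Benjamini-Hochberg adjustment over all 22206 probe sets. Of all probe sets, 6.79% were called for fasting in WT (3.1% higher) and 14.4% for fasting in Mcl1KO (8.2% higher). Bright probe sets were called more often, and all 7 enzymes have a mean log2 signal above 7 over the 20 arrays. Gldc, at 7.22, passes this limit only through its fasted groups. Its means in WT and Mcl1KO were 6.06 and 6.39 when fed, and 8.34 and 8.08 when fasted. Among the 2362 probe sets with a mean log2 signal above 7, 23.1% were called in WT and 45.0% in Mcl1KO. For the same 4 enzymes every fasted array was above every fed array, as was so for 3.54% of all probe sets in WT and 5.88% in Mcl1KO. The median difference of the 7 enzymes was 0.63 in WT and 0.43 in Mcl1KO on the log2 scale, against medians of 0.01 and 0.0 over all probe sets.

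**Figure D1:**
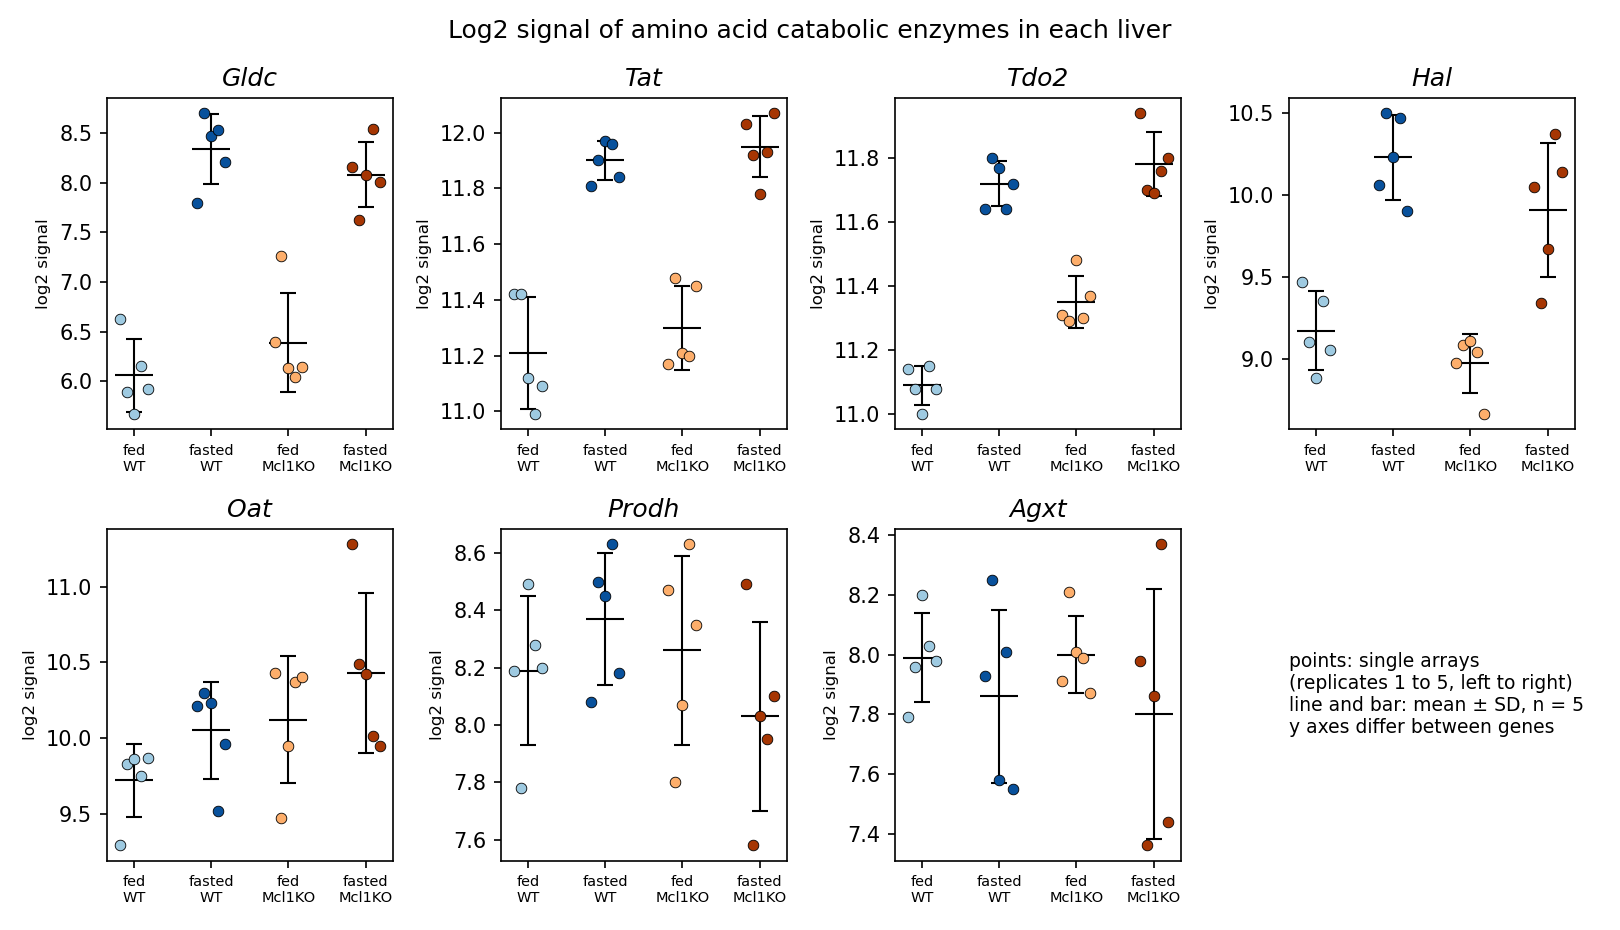
Log2 signal (y axis, a separate scale for each gene) of 7 amino acid catabolic enzymes in each of 20 livers, by group (x axis). Points are single arrays, and the line and bar are the mean and SD of 5 arrays. For Gldc, Tat, Tdo2 and Hal every fasted array lies above every fed array of its genotype, and for Oat, Prodh and Agxt fed and fasted arrays overlap.

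The promoters of the 4 enzymes that rose are shown because these genes moved together. Each run holds the 250 bases before the RefSeq transcription start (GRCm38.p6, strand of the gene), read 5′ to 3′, with motif matches in capitals.
Gldc, chr19:30175442-30175691, minus strand: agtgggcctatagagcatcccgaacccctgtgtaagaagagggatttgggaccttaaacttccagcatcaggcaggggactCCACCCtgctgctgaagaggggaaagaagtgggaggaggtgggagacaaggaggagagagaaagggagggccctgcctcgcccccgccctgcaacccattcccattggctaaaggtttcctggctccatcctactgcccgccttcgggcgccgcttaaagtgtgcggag
Tat, chr8:109990186-109990435, plus strand: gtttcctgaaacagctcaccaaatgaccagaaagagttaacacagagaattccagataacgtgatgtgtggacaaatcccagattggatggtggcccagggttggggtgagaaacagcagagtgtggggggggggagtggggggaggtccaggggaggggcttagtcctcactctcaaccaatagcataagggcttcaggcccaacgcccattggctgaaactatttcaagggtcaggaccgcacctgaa
Tdo2, chr3:81975729-81975978, minus strand: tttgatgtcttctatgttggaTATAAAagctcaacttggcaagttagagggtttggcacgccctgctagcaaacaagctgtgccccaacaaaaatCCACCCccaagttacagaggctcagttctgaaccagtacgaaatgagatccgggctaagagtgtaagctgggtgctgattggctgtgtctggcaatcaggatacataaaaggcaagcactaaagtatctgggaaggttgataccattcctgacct
Hal, chr10:93488518-93488767, plus strand: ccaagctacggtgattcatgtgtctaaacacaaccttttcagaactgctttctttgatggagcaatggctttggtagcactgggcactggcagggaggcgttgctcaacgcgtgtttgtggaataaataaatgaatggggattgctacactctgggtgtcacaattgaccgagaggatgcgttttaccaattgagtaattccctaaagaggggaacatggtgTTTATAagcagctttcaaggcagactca
The searched motifs, on both strands, were the cAMP response element (TGACGTCA, in 1.55% of 32851 such promoters), its short form (TGACG, 17.8%, contained in the full element) and the short glucocorticoid response element (AGAACA, 16.1%). The others were a forkhead element (GTAAACA, 3.17%), an HNF4 element (CAAAGTCCA, 0.384%), a C/EBP element (TTGCGCAA, 0.164%), a KLF element (CCACCC, 28.1%) and a TATA box (TATAAA, 12.4%). Gldc held 1 KLF element, Tdo2 1 KLF element and 1 match to the TATA box letters, Hal 1 such match on the reverse strand and Tat none of the motifs. The TATA box letters lay at bases -229 to -224 from the start in Tdo2 and at -28 to -23 in Hal. None of the 4 windows held the cAMP response element or its short form, the short glucocorticoid response element, the forkhead, HNF4 or C/EBP elements. These letters are absent from these windows only, and the known glucocorticoid-responsive elements of Tat lie further upstream. Among the enzymes that were not called, Agxt held the short glucocorticoid response element and a KLF element, Oat a pair of overlapping KLF elements and Prodh 1 KLF element.

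Gldc encodes the decarboxylase of the glycine cleavage system, which splits glycine in mitochondria and hands a carbon unit to folate. Its log2 signal in fed WT livers was 6.63, 5.89, 5.67, 6.16 and 5.92. In fasted WT livers it was 7.8, 8.7, 8.47, 8.53 and 8.21, and every fasted array lay above every fed array. Fed Mcl1KO livers had 6.4, 7.26, 6.13, 6.04 and 6.14, and fasted Mcl1KO livers had 8.16, 7.62, 8.08, 8.54 and 8.01. Replicate 2 was the highest of the fed Mcl1KO arrays and was still below the lowest fasted one. The group means rose in the order 6.06 ± 0.37 in fed WT, 6.39 ± 0.50 in fed Mcl1KO, 8.08 ± 0.33 in fasted Mcl1KO and 8.34 ± 0.35 in fasted WT (SD, n = 5 each). WT and Mcl1KO arrays overlapped within each feeding state. The fasting difference in WT was 2.29 (SE 0.22, 95% interval 1.83 to 2.74; limma adjusted p = 2.12e-07). In Mcl1KO it was 1.69 (95% interval 1.23 to 2.14; limma adjusted p = 6.71e-06). The difference between these fasting effects, the interaction, was -0.6 (95% interval -1.24 to 0.04; limma adjusted p = 0.483), so a smaller rise of Gldc in Mcl1KO livers was not called. Without fed Mcl1KO replicate 2 the interaction was -0.38.

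Tat encodes tyrosine aminotransferase, which starts tyrosine breakdown. Its log2 signal was 11.42, 11.42, 11.12, 10.99 and 11.09 in fed WT livers and 11.81, 11.9, 11.97, 11.96 and 11.84 in fasted WT livers. In Mcl1KO livers it was 11.17, 11.48, 11.21, 11.2 and 11.45 when fed and 12.03, 11.92, 11.78, 11.93 and 12.07 when fasted. In each genotype the fasted arrays were all above the fed ones, while WT and Mcl1KO arrays of the same feeding state overlapped. In rising order the means were 11.21 ± 0.20 (fed WT), 11.3 ± 0.15 (fed Mcl1KO), 11.9 ± 0.07 (fasted WT) and 11.95 ± 0.11 (fasted Mcl1KO; SD, n = 5 each). The fasting difference of Tat was 0.69 (95% interval 0.47 to 0.90) in WT and 0.65 (0.43 to 0.86) in Mcl1KO, with limma adjusted p-values of 0.000106 and 8.98e-05. The interaction was -0.04 (95% interval -0.35 to 0.26). The highest Tat value lay 0.50 below the highest value of the whole table, near the top of the scale.

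Tdo2 encodes tryptophan dioxygenase, which opens the ring of tryptophan as the first step to kynurenine. Its log2 signal was 11.14, 11.08, 11.0, 11.15 and 11.08 in fed WT livers and 11.64, 11.8, 11.77, 11.64 and 11.72 in fasted WT livers. In Mcl1KO livers it was 11.31, 11.29, 11.48, 11.3 and 11.37 when fed and 11.94, 11.7, 11.69, 11.76 and 11.8 when fasted. The fed WT arrays lay below all other arrays, the fed Mcl1KO arrays came next, and the fasted arrays of both genotypes overlapped at the top. The means were 11.09 ± 0.06, 11.35 ± 0.08, 11.72 ± 0.07 (fasted WT) and 11.78 ± 0.10 (fasted Mcl1KO; SD, n = 5 each). Fasting raised Tdo2 by 0.63 (95% interval 0.45 to 0.80; limma adjusted p = 2.31e-05) in WT and by 0.43 (0.25 to 0.60; limma adjusted p = 0.000765) in Mcl1KO. In fed livers Tdo2 was 0.26 higher in Mcl1KO than in WT (95% interval 0.09 to 0.43), a 1.2-fold difference with an unadjusted limma p of 0.00496 and an adjusted p of 0.501. Each of the 5 fed Mcl1KO arrays was above all 5 fed WT arrays, a pattern that 0.806% of all probe sets showed in this direction. The interaction for Tdo2 was -0.2 (95% interval -0.44 to 0.05; limma adjusted p = 0.556). The highest Tdo2 value lay 0.62 below the top of the table. Its spread within groups (pooled SD 0.08) was the smallest of the 7 enzymes, and that of Gldc and Oat (0.39 each) the largest.

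Hal encodes histidine ammonia-lyase, which removes ammonia from histidine to give urocanate. Its log2 signal was 9.47, 9.1, 8.88, 9.35 and 9.05 in fed WT livers and 10.06, 10.5, 10.23, 10.47 and 9.9 in fasted WT livers. In Mcl1KO livers it was 8.97, 9.08, 9.11, 9.04 and 8.66 when fed and 10.05, 9.34, 9.67, 10.37 and 10.14 when fasted. Fasted arrays were above fed arrays in both genotypes, and replicate 2 was the lowest of the fasted Mcl1KO arrays, at a level within the range of fed WT arrays. In rising order the means were 8.97 ± 0.18 (fed Mcl1KO), 9.17 ± 0.24 (fed WT), 9.91 ± 0.41 (fasted Mcl1KO) and 10.23 ± 0.26 (fasted WT; SD, n = 5 each). The fasting difference of Hal was 1.06 (95% interval 0.72 to 1.40) in WT and 0.94 (0.60 to 1.29) in Mcl1KO, with limma adjusted p-values of 0.000172 and 0.000264. The interaction was -0.12 (95% interval -0.61 to 0.37). Of the next enzymes on the histidine route, Amdhd1 (imidazolonepropionase) was called higher in both genotypes, by 0.51 in WT (limma adjusted p = 0.0104) and 0.67 in Mcl1KO (0.000345). Ftcd, which passes the formimino group to folate, was called higher in WT at 0.41 (limma adjusted p = 0.031). Its difference in Mcl1KO was 0.24 (limma adjusted p = 0.201). The Ftcd call in WT was lost under 7 of 27 alternative settings, with adjusted p up to 0.0897. Uroc1, the urocanate hydratase gene between Hal and Amdhd1, had differences of 0.32 in WT and -0.23 in Mcl1KO, neither of them called.

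**Figure D2:**
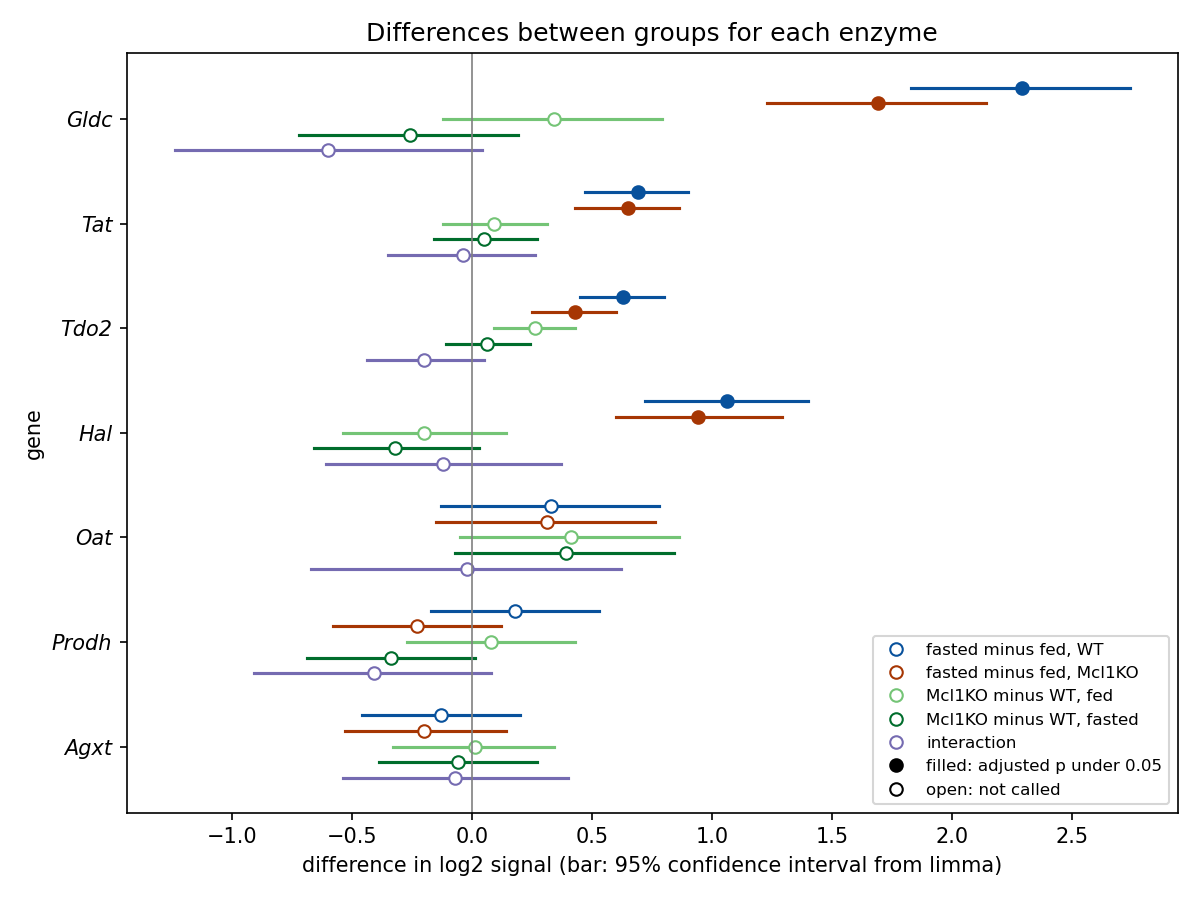
Differences in log2 signal (x axis) for each enzyme (y axis) in 5 comparisons, with 95% confidence intervals from limma and filled points at an adjusted p under 0.05. The filled points are the fasting differences of Gldc, Tat, Tdo2 and Hal in WT and in Mcl1KO, from 0.43 to 2.29, and the genotype and interaction differences are all open.

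Oat encodes ornithine aminotransferase, which links ornithine to glutamate and proline. Its log2 signal was 9.29, 9.83, 9.86, 9.75 and 9.87 in fed WT livers and 10.21, 10.3, 10.23, 9.52 and 9.96 in fasted WT livers. In Mcl1KO livers it was 10.43, 9.47, 9.95, 10.37 and 10.4 when fed and 11.28, 10.49, 10.42, 10.01 and 9.95 when fasted. Fed and fasted arrays overlapped in each genotype, as did WT and Mcl1KO arrays in each feeding state. The means were 9.72 ± 0.24 (fed WT), 10.05 ± 0.32 (fasted WT), 10.12 ± 0.42 (fed Mcl1KO) and 10.43 ± 0.53 (fasted Mcl1KO; SD, n = 5 each). The fasting difference of Oat was 0.33 (95% interval -0.13 to 0.78) in WT and 0.31 (-0.15 to 0.76) in Mcl1KO. Both intervals include the size of the rise seen for Tat. With single arrays left out the WT difference ranged from 0.22 (without fed WT replicate 1) to 0.46. The Mcl1KO difference was 0.14 without fed Mcl1KO replicate 2 and 0.09 without fasted Mcl1KO replicate 1. Mcl1KO minus WT was 0.41 (95% interval -0.05 to 0.86) in fed and 0.39 (-0.07 to 0.84) in fasted livers, with limma adjusted p-values of 0.845 and 0.376. The fasted value was 0.17 without fasted Mcl1KO replicate 1 and 0.25 without fasted WT replicate 4.

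Prodh encodes proline dehydrogenase, which oxidises proline in mitochondria. Its log2 signal was 8.19, 7.78, 8.49, 8.28 and 8.2 (fed) and 8.08, 8.5, 8.45, 8.63 and 8.18 (fasted) in WT livers, and 8.47, 7.8, 8.07, 8.63 and 8.35 (fed) and 8.49, 7.58, 8.03, 7.95 and 8.1 (fasted) in Mcl1KO livers. Every group overlapped every other, and replicate 2 was the lowest array of both Mcl1KO groups and of fed WT. The means ran from 8.03 ± 0.33 in fasted Mcl1KO through 8.19 ± 0.26 in fed WT and 8.26 ± 0.33 in fed Mcl1KO to 8.37 ± 0.23 in fasted WT (SD, n = 5 each). The fasting difference of Prodh was 0.18 (95% interval -0.17 to 0.53) in WT and -0.23 (-0.58 to 0.12) in Mcl1KO, and the interaction was -0.41 (-0.91 to 0.08; limma adjusted p = 0.546). In fasted livers Mcl1KO minus WT was -0.34 (95% interval -0.69 to 0.01; limma adjusted p = 0.301).

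Agxt encodes the peroxisomal alanine-glyoxylate aminotransferase, which turns glyoxylate into glycine. Its log2 signal was 7.79, 7.96, 8.2, 8.03 and 7.98 (fed) and 7.93, 8.25, 7.58, 8.01 and 7.55 (fasted) in WT livers, and 7.91, 8.21, 8.01, 7.99 and 7.87 (fed) and 7.98, 7.36, 7.86, 8.37 and 7.44 (fasted) in Mcl1KO livers. The 4 groups overlapped, and the fasted groups were the more spread, with SDs of 0.29 and 0.42 against 0.15 and 0.13 in the fed groups. The means were 7.8 (fasted Mcl1KO), 7.86 (fasted WT), 7.99 (fed WT) and 8.0 (fed Mcl1KO; n = 5 each). The fasting difference of Agxt was -0.13 (95% interval -0.46 to 0.20) in WT and -0.2 (-0.53 to 0.14) in Mcl1KO. These intervals do not reach the fasting differences found for Tat.

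No member was called between genotypes. In limma 0 of 7 were called in fed livers (1 at an unadjusted p under 0.05, Tdo2), against 0.036% of all probe sets. In fasted livers 0 of 7 were called (0 at an unadjusted p under 0.05), against 4.99% of all probe sets, and for the interaction 0 of 7 (0 unadjusted), against 0.135%. The largest genotype differences among the 7 in fasted livers were those of Oat and Prodh given above, followed by Hal at -0.32 (95% interval -0.66 to 0.03) and Gldc at -0.26 (-0.72 to 0.19). In fed livers Mcl1KO minus WT was 0.34 (-0.12 to 0.79) for Gldc and -0.2 (-0.54 to 0.14) for Hal. The Gldc value was 0.12 without fed Mcl1KO replicate 2, the array highest in its group. For Tat the genotype differences were 0.09 in fed livers (95% interval -0.12 to 0.31) and 0.05 in fasted livers (-0.16 to 0.27). The comparisons share groups: the fasted minus fed and Mcl1KO minus WT differences of a gene rest on the same 20 arrays.

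As a check of the labels, the Mcl1 signal was 7.43 ± 0.15 (fed) and 7.28 ± 0.09 (fasted) in WT livers, against 6.09 ± 0.16 (fed) and 6.14 ± 0.25 (fasted) in Mcl1KO livers (SD, n = 5 each), with no overlap between genotypes. The mean of 10 hepatocyte markers lay between 11.4 and 11.52 on all 20 arrays. For fasting, 0 of the 10 were called in WT, and 1 was called higher and 1 lower in Mcl1KO. Some of these markers lay near the top of the scale: Alb group means were 12.46 to 12.49, against a highest value of 12.56 in the table. The mean of 9 Kupffer cell markers moved with fasting: it went from 5.26 to 5.73 (fed) to 4.54 to 4.86 (fasted) in WT livers, and from 5.42 to 5.68 (fed) to 4.99 to 5.65 (fasted) in Mcl1KO livers. In limma, 4 of those 9 markers were called lower in WT and 2 of 9 in Mcl1KO. Of all probe sets, 6.79% were called for fasting in WT and 14.4% in Mcl1KO, in either direction. Means of Vsig4 (6.17 fed, 6.49 fasted) and Marco (4.42, 4.86) were higher in fasted Mcl1KO livers. For the interaction 1 of the 9 Kupffer cell markers was called, against 0.135% of all probe sets. Between genotypes in fasted livers, 3 of 9 were called higher in Mcl1KO and 0 lower, against 4.99% of all probe sets called. In that genotype comparison 1 of 5 neutrophil and 1 of 7 stellate cell markers were called higher, and 0 of 5 cholangiocyte markers. Their part in genotype differences was not tested. The mean of 2 erythroid markers was lower in fasted livers without overlap, at 6.45 to 7.13 (fed) and 5.57 to 6.07 (fasted) in WT livers and 6.22 to 6.74 (fed) and 5.32 to 5.58 (fasted) in Mcl1KO livers. Of 8 sinusoidal endothelium markers, 1 was called higher and 2 lower in WT, and 2 higher and 0 lower in Mcl1KO. In whole liver, fewer cells of a type and less RNA per cell cannot be told apart, and the part of these markers in the rise of the 4 enzymes was not tested. Lymphocyte, exocrine pancreas and kidney tubule lists stayed at mean log2 signals of 2.46 to 4.27.

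Some genes of the liver zones moved with fasting as well. Of 11 measured periportal genes, 6 were called higher and 0 lower in WT (54.5% called), and 6 higher and 1 lower in Mcl1KO (63.6%). Asl, the argininosuccinate lyase gene of the urea cycle, was 1.55 higher in WT and 1.69 in Mcl1KO (limma adjusted p = 1.66e-08 and 2.11e-09). Cyp2f2, the gene called lower, fell by 0.65 in Mcl1KO (limma adjusted p = 0.00355), and its difference in WT was -0.22 (0.503). G6pc, at -0.28 in WT and -0.13 in Mcl1KO, and Pigr, at 0.24 and -0.34, were not called. Several periportal genes are themselves urea cycle or gluconeogenic enzymes, and Arg1 stands both in this list and in the wider amino acid list. Of 10 measured pericentral genes, 0 were called higher, 3 lower in WT (30.0%) and 4 lower in Mcl1KO (40.0%). Of all probe sets 6.79% and 14.4% were called, and of those with a mean log2 signal above 7, 23.1% and 45.0%. Cyp1a2, a cytochrome P450 of the cells around the central vein, fell by 3.1 in WT and fell by 4.14 in Mcl1KO on the log2 scale (limma adjusted p = 1.73e-08 and 1.41e-10). Rgn, the regucalcin gene, fell by 2.03 in WT and fell by 2.83 in Mcl1KO (limma adjusted p = 0.000256 and 1.69e-06). Lect2 was called lower in both genotypes too. The other WT differences, none called, were 0.09 (Cyp2e1), 0.0 (Lgr5), -0.02 (Axin2), -0.34 (Slc1a2), -0.56 (Tbx3), 0.47 (Cyp7a1) and -0.07 (Cyp27a1). In Mcl1KO Lgr5 fell by 0.76 (limma adjusted p = 0.000348), while Cyp2e1, Cyp7a1 and Cyp27a1 at -0.08, 0.46 and -0.06 were not called. Axin2 at -0.31, Slc1a2 at -0.47 and Tbx3 at -0.58 were not called in Mcl1KO either. Oat, the pericentral enzyme among the 7, was not called in either genotype, with the values given above. The part of these zone lists in the enzymes' rise was not tested.

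**Figure D3:**
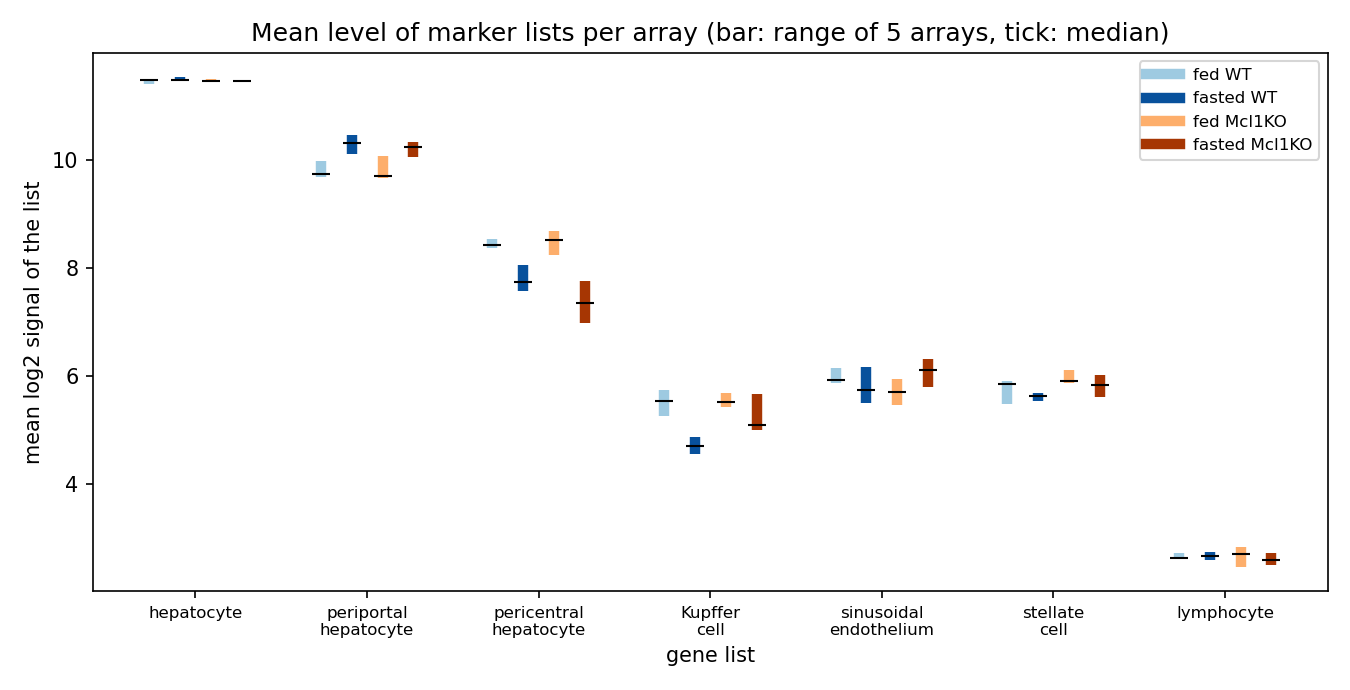
Mean log2 signal (y axis) of 7 gene lists (x axis) in the 4 groups. Bars span the lowest to the highest of 5 arrays and ticks are medians. Hepatocyte markers stay between 11.4 and 11.52, the periportal medians are higher in fasted livers, and the pericentral and Kupffer cell medians are lower. Fed and fasted Kupffer cell bars overlap in Mcl1KO (5.42 to 5.68 and 4.99 to 5.65) and not in WT.

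The wider set of amino acid catabolic genes held 86 further genes, of which 79 were measured. In WT livers fasting raised 20 of these and lowered 4 (limma, adjusted p under 0.05), with a median difference of 0.26. In Mcl1KO livers 17 rose and 10 fell, with a median of 0.05. The called genes made up 30.4% of the set in WT and 34.2% in Mcl1KO. All probe sets stood at 6.79% and 14.4%, and those with a mean log2 signal above 7 at 23.1% and 45.0%. In Mcl1KO the share of the set was thus below that of bright probe sets. The set also holds dim genes, such as Bcat1 with group means of 2.61 to 2.81, and its bright genes were not counted apart. By pathway, glutamine, glutamate, aspartate and alanine genes had 5 of 7 higher in WT and 2 of 7 in Mcl1KO, with none lower. Histidine genes beside Hal had 2 of 4 higher in WT and 1 of 4 in Mcl1KO. Branched-chain genes had 3 of 23 higher and 0 lower in WT, and 3 higher and 3 lower in Mcl1KO. Tyrosine and phenylalanine genes beside Tat had 1 of 6 higher in WT, Hpd at 0.27 (limma adjusted p = 0.0445), a call lost under 16 of 27 alternatives (adjusted p up to 0.113). In Mcl1KO 0 of these 6 were called in limma, and 3 had an unadjusted p under 0.05.

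**Figure D4:**
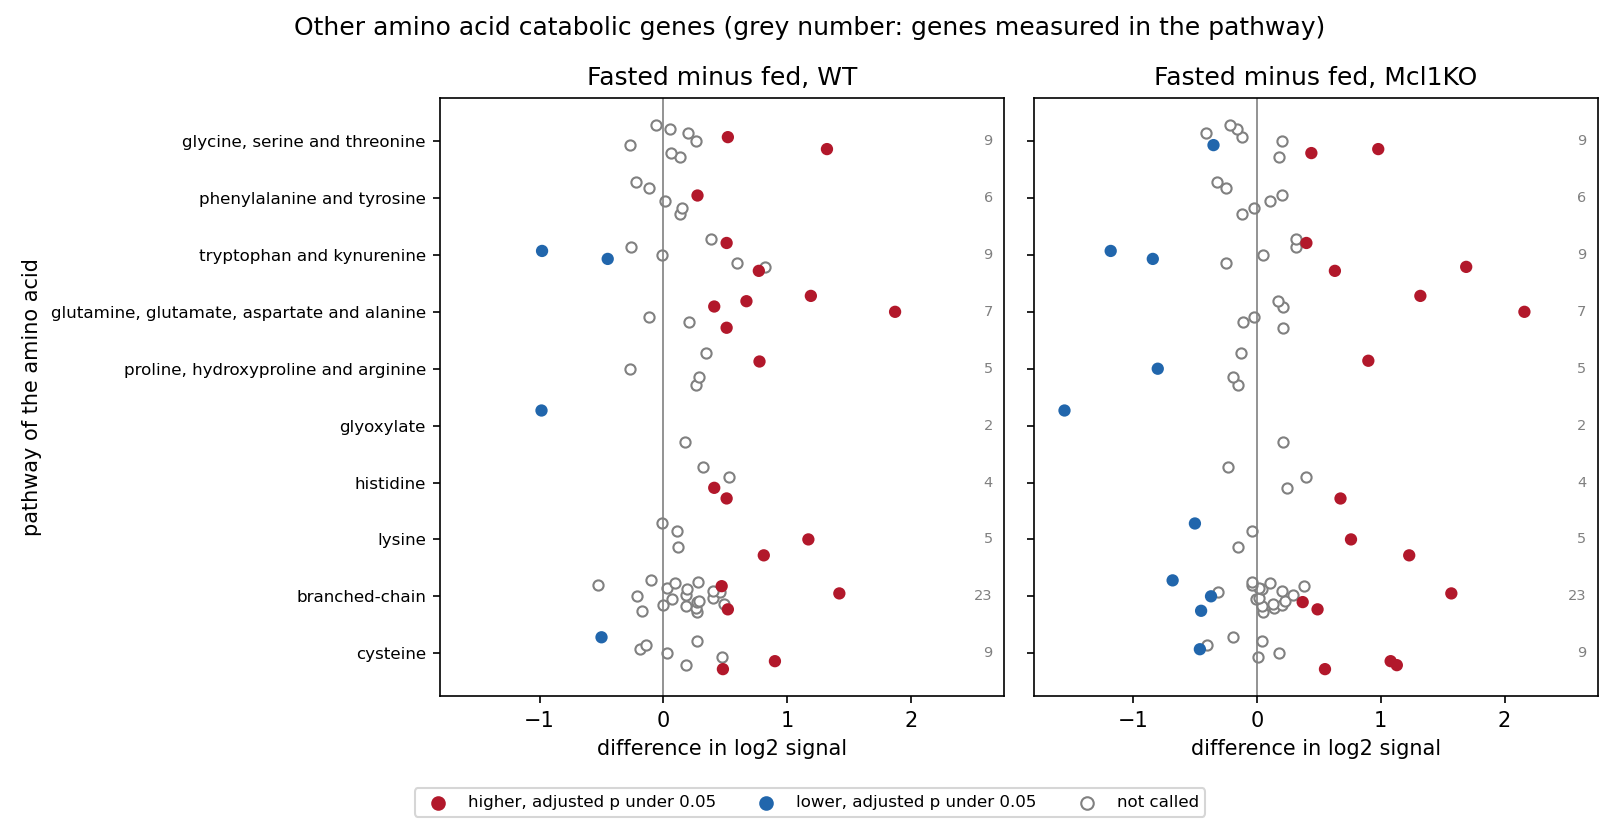
Fasted minus fed difference in log2 signal (x axis) of 79 other amino acid catabolic genes by pathway (y axis), in WT (left) and Mcl1KO (right). Red points were called higher, blue points lower and open points not called, with 20 red and 4 blue in WT and 17 red and 10 blue in Mcl1KO.

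Of the 3 largest called rises in each genotype, Got1 and Hsd17b10 were common to both. Got1, the cytosolic aspartate aminotransferase gene, had means of 8.76 ± 0.19 (fed) and 10.64 ± 0.25 (fasted) in WT livers, and 8.88 ± 0.20 (fed) and 11.04 ± 0.44 (fasted) in Mcl1KO livers (SD, n = 5 each). Its fasting difference was 1.87 in WT and 2.16 in Mcl1KO (limma adjusted p = 9.54e-08 and 4.15e-09). Hsd17b10, a mitochondrial dehydrogenase of isoleucine breakdown, rose by 1.42 and 1.57 (limma adjusted p = 1.15e-08 and 1.06e-09). Gpt2, the mitochondrial alanine aminotransferase gene, rose by 1.19 and 1.32, and Arg1, the liver arginase gene, by 0.77 and 0.90. Dmgdh, whose enzyme takes a methyl group from dimethylglycine upstream of glycine, rose by 1.32 in WT and 0.98 in Mcl1KO (limma adjusted p = 6.23e-07 and 1.5e-05). Hao1, which makes the glyoxylate that Agxt removes, fell by 0.99 in WT and fell by 1.56 in Mcl1KO (limma adjusted p = 0.0355 and 0.000369). The WT call of Hao1 was lost under 8 of 27 alternatives, with adjusted p up to 0.101. Tst, a mitochondrial sulfurtransferase gene, fell by 0.50 in WT (limma adjusted p = 0.0094), and its difference in Mcl1KO was -0.19 (0.371).

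Downstream of Tdo2 the kynurenine genes did not move one way. Of 9 measured, 2 were called higher and 2 lower in WT, and 3 higher and 2 lower in Mcl1KO. Kynu, the kynureninase gene, rose by 0.51 in WT (limma adjusted p = 0.017) and by 0.40 in Mcl1KO (0.0437). The Kynu call was lost under 2 of 27 alternatives in WT (adjusted p up to 0.0551) and 13 of 27 in Mcl1KO (up to 0.139). Acmsd, which diverts the pathway away from NAD synthesis, was 1.69 higher in Mcl1KO (limma adjusted p = 0.000669), and its difference in WT was 0.82 (0.166). Kyat1, a kynurenine aminotransferase gene, fell by 0.98 in WT and fell by 1.18 in Mcl1KO (limma adjusted p = 0.000476 and 2.27e-05). Haao, a dioxygenase gene on the route to NAD, fell by 0.45 in WT and fell by 0.84 in Mcl1KO (limma adjusted p = 0.0331 and 5.36e-05), and its WT call was lost under 6 of 27 alternatives (up to 0.108). Along the proline route, Aldh4a1, the dehydrogenase that acts on the product of Prodh, fell by 0.80 in Mcl1KO (limma adjusted p = 0.00216), and its difference in WT was -0.27 (0.48).

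Between genotypes in fasted livers, 3 of 79 genes of the wider set were called higher and 5 lower in Mcl1KO (median -0.16). That is 10.1% of the set, against 4.99% of all probe sets and 13.5% of the probe sets with a mean log2 signal above 7. This count ranged from 1 to 12 when single arrays were left out, and was 1 without fasted Mcl1KO replicate 2 or without replicate 5. Afmid, the arylformamidase that acts just after Tdo2, was 2.05-fold lower in fasted Mcl1KO than in fasted WT livers (-1.04; limma adjusted p = 0.007). Acmsd was 1.18 higher (limma adjusted p = 0.0365) and Aass, which starts lysine breakdown, 0.52 higher (0.0256). Their calls were lost under 10 and 5 of 27 alternatives, with adjusted p up to 0.112 and 0.103. Dld, a subunit shared by the glycine cleavage system and other complexes, was 0.34 higher (limma adjusted p = 0.0455), a call lost under 18 of 27 alternatives (up to 0.123). For Pipox, the pipecolate oxidase gene, and Ivd, an enzyme of leucine breakdown, Mcl1KO minus WT was -0.55 each (limma adjusted p = 0.0213 and 0.0491). Those calls were lost under 4 and 21 of 27 alternatives, with adjusted p up to 0.104 and 0.173. In fed livers 0 of 79 were called in limma (3 at an unadjusted p under 0.05), and for the interaction 0 of 79 (15 unadjusted). The largest fed differences were Csad, a taurine synthesis enzyme, at -1.09 (adjusted p = 0.507) and Amdhd1 at -0.41 (0.45). The largest interactions were Csad at 0.96 (0.486) and Acmsd at 0.87 (0.491).

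Amino acid carriers were all measured, 32 of 32 listed. Fasting raised 2 and lowered 4 in WT (18.8% called), and raised 5 and lowered 4 in Mcl1KO (28.1%). These shares lay above those of all probe sets (6.79% and 14.4%). They lay below those of probe sets with a mean log2 signal above 7 (23.1% and 45.0%). The carrier list also holds dim genes, such as Slc1a1 with group means of 2.15 to 2.41. It is thus unlike the bright probe sets, and the lower share says nothing about the bright carriers. Slc7a2, a cationic amino acid carrier, rose by 0.68 in WT (limma adjusted p = 0.000172) and 0.49 in Mcl1KO (0.00189). Slc25a22, a mitochondrial glutamate carrier, rose by 0.65 in WT and by 1.09 in Mcl1KO (limma adjusted p = 0.0128 and 3.36e-05) and was 0.67 higher in fasted Mcl1KO than fasted WT livers (0.0192). The last call was lost under 3 of 27 alternatives, with adjusted p up to 0.0604. Slc3a2, the heavy chain of several carriers, rose by 0.79 and the mitochondrial aspartate-glutamate carrier Slc25a12 by 0.55 in Mcl1KO (limma adjusted p = 0.000314 and 0.0127). Slc3a2 was also 0.49 higher in fasted Mcl1KO than fasted WT livers (0.0453), a call lost under 18 of 27 alternatives (up to 0.139). In Mcl1KO, Slc3a1 fell by 1.84 and the lysosomal carrier Slc36a1 fell by 1.15 (limma adjusted p = 0.0103 and 2.53e-05). Slc6a13, a taurine and GABA carrier, fell by 0.52 in WT and fell by 0.59 in Mcl1KO, and Slc7a7 fell by 0.59 and Slc6a6 fell by 0.47 in WT. The WT calls of Slc6a13, Slc7a7 and Slc6a6 were lost under 2 of 27, 6 of 26 and 6 of 27 alternatives, with adjusted p up to 0.0632, 0.115 and 0.0815. In limma 0 of 32 carriers were called in fed livers (2 at an unadjusted p under 0.05) and 0 of 32 for the interaction (4 unadjusted). The largest fed differences were Slc43a1 at 0.49 and Slc1a4 at 0.34, and the largest interactions Slc3a1 at -1.27 and Slc36a1 at -0.68.

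Of 26 regulators of these genes 24 were measured. In WT 5 rose and 1 fell, and in Mcl1KO 8 rose and 4 fell. Fkbp5, a glucocorticoid target, had means of 7.77 ± 0.36 (fed) and 9.85 ± 0.23 (fasted) in WT livers, and 7.77 ± 0.31 (fed) and 9.92 ± 0.13 (fasted) in Mcl1KO livers (SD, n = 5 each). It rose by 2.08 in WT and 2.15 in Mcl1KO (limma adjusted p = 1.15e-08 and 2.47e-09). Other listed glucocorticoid targets did not all move this way. Tsc22d3 had differences of -0.06 in WT and -0.72 in Mcl1KO, neither called (limma adjusted p = 0.952 and 0.0616). Per1 differed by 0.58 in WT, not called (0.129), and was called higher in Mcl1KO at 1.03 (0.00155). Ppargc1a, a coactivator of fasting genes, rose by 1.8 and 1.64 (limma adjusted p = 4e-05 and 5.01e-05), and Atf5 rose by 1.0 in WT (0.000298) and 1.33 in Mcl1KO (3.68e-06). Cebpa, a hepatocyte transcription factor, fell by 0.58 in WT and fell by 0.97 in Mcl1KO (limma adjusted p = 0.00885 and 1.87e-05). In Mcl1KO livers Igfbp1 rose by 1.56 (limma adjusted p = 0.0183), Nr0b2 fell by 1.56 (0.000281) and Ppara fell by 0.72 (0.0283). The calls of Igfbp1 and Ppara were lost under 2 and 8 of 27 alternatives, with adjusted p up to 0.0641 and 0.103. Between genotypes in fasted livers, 1 of 24 regulators was called higher and 3 lower in Mcl1KO (16.7%). Of all probe sets 4.99% were called in this comparison, and of those with a mean log2 signal above 7, 13.5%. In fasted livers Mcl1KO exceeded WT by 0.76 for Atf4, the amino acid stress factor (limma adjusted p = 0.0118). For Hsd11b1, which regenerates active glucocorticoid, the same difference was -0.64 (limma adjusted p = 0.00606). It was -0.58 (0.00588) for Klf15, a regulator of amino acid catabolic genes, and -0.59 (0.0152) for Cebpa. The Cebpa call was lost under 1 of 27 alternatives (adjusted p = 0.086). With fasting, Klf15 was called higher in WT at 0.48 (limma adjusted p = 0.0109), and its difference in Mcl1KO was 0.01 (0.989). The Klf15 interaction was -0.48, not called (0.239). Atf4 differed with fasting by -0.18 in WT, not called (limma adjusted p = 0.687), and was called higher in Mcl1KO at 0.78 (0.0021). In limma 0 of 24 regulators were called in fed livers (3 at an unadjusted p under 0.05) and 0 of 24 for the interaction (5 unadjusted). The largest fed differences were Igfbp1 at 1.07 and Cebpb at 0.48, and the largest interactions Atf4 at 0.95 (adjusted p = 0.0941) and Nr0b2 at -0.82. Without fasted Mcl1KO replicate 3 the Atf4 interaction was 1.11 with an adjusted p of 0.0102.

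The genes whose pattern over the 20 arrays was most like each enzyme were found by Pearson r, given as a description since all values share the fed and fasted groups. For Gldc they were Amy1 (r = 0.957), Sult1a1 (0.945) and Ppargc1a (0.944). For Tat they were St3gal5 (0.958), Agpat3 (0.954) and Got1 (0.954). For Tdo2 they were Slc7a2 (0.957), Agpat3 (0.949) and Atp2a2 (0.939). For Hal they were Atp5d (0.941), Amdhd1 (0.918) and Sorbs3 (0.91). The nearest genes of the enzymes that were not called lay further off: Lhpp (0.846), Prpf38b (0.836) and Ccl1 (0.801) for Oat. For Prodh they were Aldh1l1 (0.851), Cldn11 (0.774) and Olfr373 (0.749), and for Agxt Ccdc91 (0.848), Lonp1 (0.803) and Bnip2 (0.779).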

How the data were processed

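The authors deposited 1 table of log2 signals, normalised by RMA (background correction, quantile normalisation, summary per probe set) in Partek 7.0, per the submitters' processing notes. Its log base is not stated; its range (1.34 to 12.56) and RMA's own output point to log2, which every fold change assumes. Quantile normalisation hides a shift shared by most transcripts. The number of arrays limits the precision.

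Groups came from the sample labels. The 20 arrays entered 1 limma 3.58.1 fit with a mean for each group and a shared spread (R 4.3.3; eBayes prior df 6.95). It gave 5 comparisons: fasting in each genotype, Mcl1KO minus WT when fed and when fasted, and an interaction (the fasting difference in Mcl1KO less that in WT). The adjusted p threshold was 0.05. Symbols come from the platform annotation, and promoter sequences from RefSeq (GRCm38.p6). The fit was tested on simulated data. The members and the lists were chosen with earlier results of these data known. From each list, up to 3 called genes per direction and comparison are named, or, where none was called, up to 2 by size of difference. The further kynurenine, histidine, proline, alanine, arginine, tyrosine, regulator, marker and zone genes were chosen after their values were seen. Replicate numbers were not treated as pairs in the main fit.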

Additional observations from a re-analysis of the deposited data

Results flagged for a closer look

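For Oat, 1 fed WT array stood apart from its group. Fed WT replicate 1 had a log2 signal of 9.29, below the 9.75 to 9.87 of the other 4 fed WT arrays, and its gap took up 0.798 of the group's range against a critical value of 0.71 (Dixon's 95% limit for 5 samples). Chance gives such a gap in about 1 of 20 groups, and 28 sets of 5 arrays were examined. The Oat fasting difference in WT was 0.33 with this array (limma adjusted p = 0.499) and 0.22 without it (0.715).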

How the results depend on the processing

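The alternatives were another quantile normalisation, median centring, trend and robust moderation, array weights, a filter on probe sets with a mean log2 signal of 4 or less, a fit on the compared groups only, a replicate block, and leaving out each of 20 arrays. The fit on the compared groups has no interaction, and no member has several probe sets, so another choice of probe set gave no value. The 4 members called for fasting in WT and the 4 in Mcl1KO were called under all 27 of these and by the exact permutation test, and no member was called between genotypes or for the interaction under any limma setting. The exact permutation test, unadjusted and two-sided, gave p = 0.00794 for Tdo2 in fed livers (difference 0.26), the smallest p that 5 against 5 arrays can give. The limma adjusted p of that difference ranged from 0.137 to 0.701. The replicate block left 4 members called in WT and 4 in Mcl1KO and changed no member's call. With the block, 1375 probe sets were called for fasting in WT, against 1507. The labels do not say whether equal replicate numbers mark pairs. Of 30 same-numbered pairs 1 had a correlation of deviations over 0.1 (range -0.19 to 0.166). Arrays with different numbers were not compared in this way, so these values cannot settle the question.

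Differences near 0 turned sign. The Oat interaction was 0.02 with median centring. Leaving out 1 array gave ranges of -0.05 to 0.06 (fed), -0.2 to 0.05 (fasted) and -0.21 to 0.04 (interaction) for Agxt, -0.1 to 0.01 for the Tat interaction, -0.23 to 0.1 for the Oat interaction, -0.03 to 0.19 for Prodh in fed livers and -0.23 to 0.03 for the Hal interaction. Counts between genotypes moved more. In fasted livers the 8 called genes of the wider amino acid set became 5 with median centring (3 higher, 2 lower, against 3 and 5), 5 with array weights, 13 with the filter on dim probe sets, 1 in the fit on the compared groups and 1 to 12 with 1 array left out. Of all probe sets, the 1109 called there became 399 in the fit on the compared groups, which uses fewer arrays, and 497 (without fasted Mcl1KO replicate 2) to 1707 (without replicate 3) with 1 array left out. Their split of 738 higher and 371 lower became 561 and 459 after quantile normalisation and 880 and 272 after median centring. The 8 called in fed livers became 15 with trend and robust moderation, 26 with array weights, 5 with the filter and 7 to 16 with 1 array left out. The 30 called for the interaction became 55 with array weights, 54 with the filter and 9 (without fasted WT replicate 2) to 331 (without fasted Mcl1KO replicate 3) with 1 array left out. Their split of 18 higher and 12 lower became 17 and 18 after quantile normalisation and 27 and 11 after median centring. The cause of these changes was not tested.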
